A study of Arabidopsis thaliana with 30 samples.

Results

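Among the transcripts measured in germinating Arabidopsis thaliana Col-0 seed, 121 probe sets had their maximum after 24 h of light and were lower both before and after it. They were chosen from 22746 probe sets by their measured values. L was log2 of the mean intensity of a group's 3 arrays plus 16. A probe set was kept if L at 24 h of light was the highest of all 10 groups and lay at least 0.8 above L at 12 h and at 48 h of light. Of all probe sets, 1787 were highest at 24 h of light, and the margin of 0.8 on both sides left 121. In the annotation used here 62 of them name exactly 1 gene each (62 different genes), 1 names several genes and 58 carry no name. Roles can therefore be given only for the 62, and an unnamed probe set is not one without a gene.

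The arrays followed whole seed through germination, with 3 arrays in each of 10 groups. In time order the groups were seed taken directly at harvest, dry seed (0 h, after 14 days of drying in the treatment protocol or 15 days of ripening in the design text), imbibed seed stratified for 1, 12 or 48 h (4 °C, darkness), and seed then moved into continuous light for 1, 6, 12, 24 or 48 h (22 °C, 100 µE per square metre and second). Every group in light had first been stratified for 48 h, so light, warmth and time since imbibition were not separated. Each sample was 80 mg of Col-0 seed with no mutant or transgene named, and whole seed holds embryo, endosperm and seed coat together. In such samples fewer cells of a type and less RNA per cell cannot be told apart, nor can a change of level from a change in the makeup of the seed. The labels do not say that the 3 replicates were separate seed lots, so the p-values may rest on technical spread alone. They describe these samples only. The standard error (SE) and p-value of a probe set rest on a spread estimated over all 10 groups together. Where most groups lie near the floor and vary little, that spread can be smaller than the one in the groups compared. Small p-values are therefore not a measure of precision at those times.

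A germinating Arabidopsis seed takes up water, ruptures its seed coat, and completes germination when the radicle pushes through the endosperm, a single cell layer that has to be weakened at its walls. After that the endosperm cells are emptied and die, reserves of oil and protein are broken down, and the seedling turns green and grows root hairs. Cysteine proteases, including vacuolar processing enzymes, take part in protein breakdown and in cell death in seed tissues, while pectin methylesterases, chitinases, peroxidases and lipid transfer proteins are secreted proteins of walls and surfaces. Seed germinating under its own coat can also meet low oxygen, to which plants respond through a small set of widely shared hypoxia genes.

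The 24 h values chose these probe sets, so the size of the maximum is a description. The mean intensity at 24 h of light had a median of 124 over the 121 probe sets and ran from 20.3 to 4111, with 27 under 50 and 11 over 1000. The median of the group means was 24.4 at 12 h of light and 36.7 at 48 h of light. As a share of its own 24 h level, the median probe set stood at 21.4% at 12 h and at 29.9% at 48 h. The smaller of both margins was the one over 48 h in 81 probe sets and the one over 12 h in 40, so most had a steeper approach than retreat on this scale. That smaller margin was at least 1 in 66 probe sets and at least 2 in 6. On single arrays, the 3 arrays at 24 h lay above all 6 arrays at 12 h and 48 h of light in 120 of 121 probe sets, and above all other 27 arrays in 119. Over all 22746 probe sets these shares were 4.88% and 3.13%, and over the 1787 that are highest at 24 h they were 44.4% and 39.8%. Nothing is read from them, since they rest on the values that chose the set. The coefficient of variation among the 3 arrays at 24 h had a median of 10.8% and ran from 2.00% to 52.9%. Its highest value belonged to PRX52, a peroxidase gene picked out here after its values were seen, which read 32.4, 16.4 and 12.0 at 24 h of light.

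**Figure D1:**
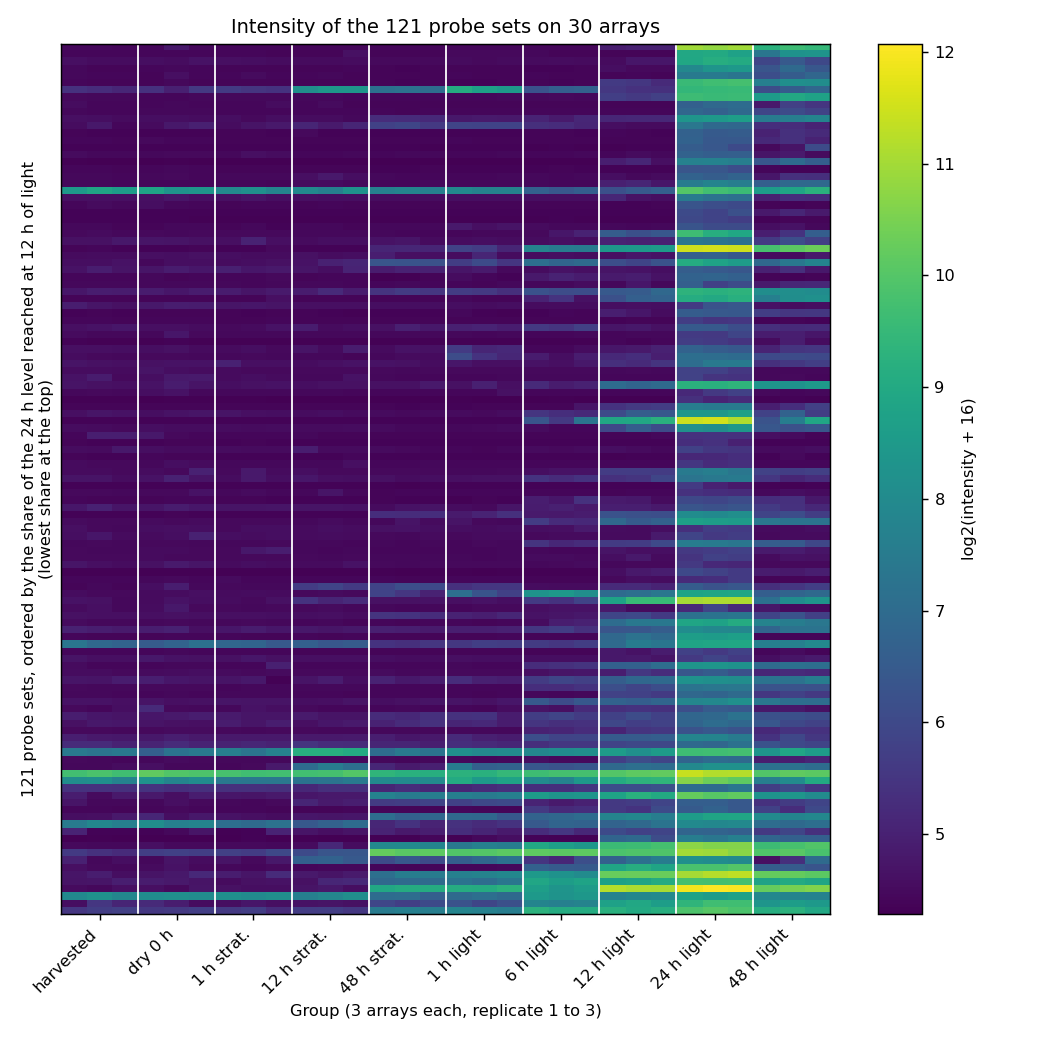
Intensity of the 121 probe sets (rows, ordered by the share of the 24 h level reached at 12 h of light) on all 30 arrays (columns, 3 for each of the 10 groups in time order), as log2(intensity + 16) on the colour scale. The 24 h column is brightest by the rule; most rows are dark before 12 h of light, and 22 rows have an earlier group mean above 100.

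Most of these transcripts were near the floor of the arrays for the whole of stratification. In 70 of the 121 probe sets all 7 group means up to 6 h of light were under 20, in 53 the 12 h of light mean was under 20 as well, and in 35 the 48 h of light mean too. Array medians in those 7 groups ran from 11.8 to 16.2, so readings under 20 were common among all probe sets. The same counts over all probe sets are not given here, so low early levels are not read as particular to the set. These 35 were above 20 at 24 h of light only, among the 10 groups sampled. At the other end, 22 probe sets had at least 1 of the 7 earlier means above 100. Of these, 11 had their earlier maximum at 6 h of light and 4 at 1 h of light. Only 4 probe sets stayed above 100 in all 7 earlier groups, namely ARL, AT3G03270, AT3G24100 and 1 without a gene name.

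Comparisons that leave out the 24 h arrays show how the same probe sets behaved on the way to the maximum and after it. They were tested with limma over all 22746 probe sets. A probe set was called with a Benjamini-Hochberg adjusted p under 0.05 and a log2 difference of at least 1. The scale is log2(intensity + 16), which understates changes of dim probe sets. None of these contrasts was the rule's own, but the rule used the means of all 10 groups, since each had to lie below that at 24 h. It used the 12 h and 48 h of light means a second time. No count below is therefore independent of the choice. The share over the 1787 probe sets highest at 24 h, which share the first condition, is given as a description beside the share over all, and was added after the values were seen. Of the 121, 28 (23.1%) rose at 12 h of light against 6 h, where 2.75% of all probe sets and 10.1% of the 1787 rose. In the same step 2 (1.65%) fell, where 1.59% of all and 0.168% of the 1787 fell. The median log2 difference of the 121 was 0.30 in that step and -0.01 over all probe sets. At 6 h of light against 48 h of stratification 12 (9.92%) rose and 2 (1.65%) fell, against 5.99% and 5.83% of all probe sets and 16.7% and 0.56% of the 1787. Together 37 (30.6%) rose in at least 1 of these steps and 3 (2.48%) in both, against 7.87% and 0.866% of all and 23.4% and 3.47% of the 1787. The remaining 84 (69.4%) were called higher in neither step, as were 92.1% of all and 76.6% of the 1787.

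At the far side of the maximum, levels were above those of stratified seed about as often as in other probe sets highest at 24 h. At 48 h of light against 48 h of stratification 50 (41.3%) were higher, where 15.2% of all probe sets and 41.4% of the 1787 were. Of the 121, 0 were lower by limma, where 16.5% of all and 0 of the 1787 were, which the rule largely fixed by removing probe sets that are high in stratified seed. An unadjusted p under 0.05, in either direction, was found for 91 (75.2%), against 60.1% of all and 77.8% of the 1787. The median log2 difference was 0.81 for the 121 and -0.02 over all. At 48 h against 12 h of light, the points on both sides of the maximum, 18 (14.9%) were higher and 6 (4.96%) lower, against 9.17% and 9.39% of all probe sets and 10.4% and 1.51% of the 1787. Of those 18, 17 were also higher at 48 h of light than at 48 h of stratification.

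During stratification the shares called higher were not far from those over all probe sets. Falls were scarcer than over all, which the rule favours by removing probe sets that are high in earlier groups. At 48 h of stratification against dry seed 15 (12.4%) rose and 3 (2.48%) fell, with 13.1% and 8.23% over all probe sets and 17.3% and 1.62% over the 1787. At 48 h against 12 h of stratification 10 (8.26%) rose and 5 (4.13%) fell, with 10.1% and 8.35% over all and 12.6% and 1.85% over the 1787. At 12 h against 1 h of stratification 5 (4.13%) rose and 0 fell, with 2.88% and 0.888% over all and 2.74% and 0.056% over the 1787. In this comparison 14 (11.6%) had an unadjusted p under 0.05 in either direction, against 29% of all. No call was made in any of the 7 comparisons in 56 of the 121 (46.3%), in 54.5% of all and in 47.5% of the 1787. The contrasts the rule used are given only for scale. At 24 h against 12 h of light 91 of the 121 (75.2%) passed both limits upward, where 4.92% of all did. At 48 h against 24 h 75 (62%) passed them downward, where 3.04% of all did.

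**Figure D2:**
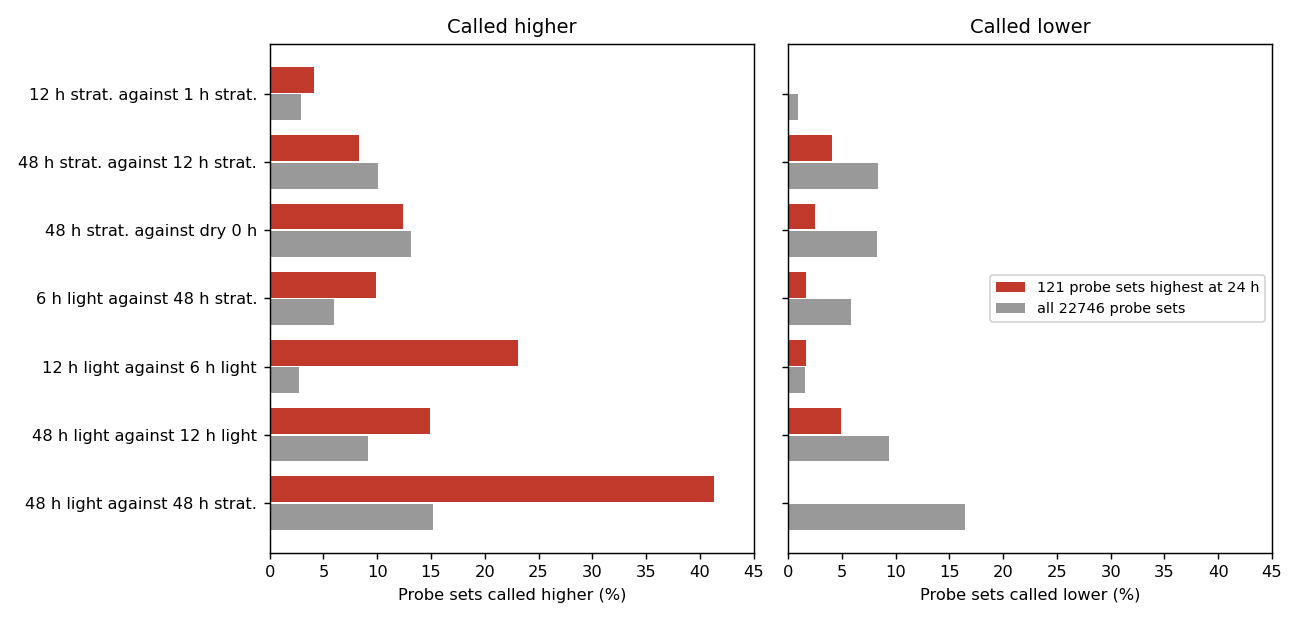
Percent of probe sets called higher (left) and lower (right) in the 7 comparisons without the 24 h arrays, for the 121 probe sets (red) and for all 22746 (grey). The red bar is longest for 48 h of light against 48 h of stratification (41.3% higher, against 15.2% of all, though also 41.4% of the 1787 probe sets highest at 24 h, not drawn) and stands farthest above the grey one in proportion at 12 h against 6 h of light (23.1% against 2.75%).

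The named genes are described by the kind of protein they encode. These groups of 2 to 4 genes were formed after the values were seen and carry no test of their own. Intensities of different probe sets are not comparable as levels, so each gene is set against its own other values. Of 80 calls on single named genes, 40 were lost in at least 1 other setting of the analysis. With 64 added to the intensities instead of 16, 39 were lost. Such losses are not given for every gene below.

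Cysteine proteases included the transcript with the steepest fall after the maximum. AT1G29080, a papain-type protease, read 106, 132 and 111 at 12 h of light, 375, 358 and 396 at 24 h, and 5.20, 5.20 and 5.08 at 48 h. Its 21 earlier arrays lay between 5.07 and 5.48, so the transcript was at the floor, present for 2 sampled times, and at the floor again. It rose by a log2 difference of 2.64 ± 0.04 (SE, adjusted p = 1.23e-21) at 12 h against 6 h of light and changed by -2.64 ± 0.04 (adjusted p = 2.81e-23) at 48 h against 12 h. Its margin of 4.21 over 48 h of light was the largest of the 121. DELTA-VPE, a vacuolar processing enzyme known from the seed coat, averaged 5.30 ± 0.12 at 48 h of stratification, 79.2 ± 7.14 at 6 h, 481 ± 56.8 at 12 h, 932 ± 56.5 at 24 h and 72.6 ± 7.96 at 48 h of light (SD, n = 3 arrays each). It rose by 2.16 ± 0.07 at 6 h of light against 48 h of stratification (adjusted p = 1.63e-16) and by 2.38 ± 0.07 at 12 h against 6 h (adjusted p = 8.08e-17), and changed by -2.48 ± 0.07 at 48 h against 12 h (adjusted p = 1.64e-18). AT2G27420, another papain-type protease, was later: 4.90, 4.95 and 5.03 at 12 h, 86.1, 106 and 113 at 24 h, and 12.3, 37.9 and 28.9 at 48 h. It was called in none of the 7 comparisons, though its 48 h arrays lay above its 12 h arrays without overlap. That difference was 0.96 ± 0.13 (adjusted p = 1.4e-06), just under the limit on size. So was the difference of 48 h of light from 48 h of stratification (0.96 ± 0.13, adjusted p = 1.03e-06).

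Enzymes and proteins of the kind plants also use against fungi included the sharpest onset. AT4G01700, a chitinase family member, read 13.8, 16.1 and 15.99 at 12 h of light, 1976, 1773 and 1956 at 24 h, and 595, 771 and 689 at 48 h, with every earlier array at 11.6 or less. All 3 arrays at 48 h lay far above those at 12 h, and its margin of 5.94 over 12 h was the largest of the set. It was higher at 48 h than at 12 h of light by 4.48 ± 0.07 (SE, adjusted p = 4.87e-23) and than at 48 h of stratification by 5.03 ± 0.07 (adjusted p = 3.66e-24). ChiC, a class V chitinase, had an earlier high: it averaged 11.4 ± 4.15 in dry seed, 38.7 ± 6.32 at the end of stratification, 42.2 ± 0.872 at 1 h of light and 7.01 ± 0.537 at 12 h, before 149, 108 and 101 at 24 h and 23.5, 22.6 and 17.2 at 48 h. Its rise at 48 h of stratification against dry seed was 1.00 ± 0.13 (adjusted p = 4.14e-07), at the limit on size, and fell under that limit with quantile normalization (0.83), with arrays centred on their median (0.92) and without either of 2 arrays of 48 h of stratification (replicate 1, 0.99; replicate 2, 0.93) or replicate 1 of dry seed (0.88). AT1G77700, a thaumatin family gene, read 23.3, 26.1 and 16.2 at 24 h of light and at most 4.94 on any other array.

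Peroxidases, secreted enzymes that act on wall phenolics and reactive oxygen, supplied 3 genes. AT5G39580 had risen already in the cold, to 61.99 ± 3.01 at 48 h of stratification, against 14.5 ± 4.72 at 12 h of stratification and 7.09 ± 1.17 in dry seed. The log2 differences were 1.37 ± 0.17 (adjusted p = 3.81e-07) and 1.76 ± 0.17 (adjusted p = 6.1e-09). In light it read 54.8, 44.6 and 61.7 at 12 h, 524, 433 and 361 at 24 h, and 105, 154 and 207 at 48 h, where it was above 12 h by 1.26 ± 0.17 (adjusted p = 1.13e-06). It was also above 48 h of stratification by 1.09 ± 0.17 (adjusted p = 5.89e-06), a call lost without replicate 3 of 48 h of light (0.88) and with arrays centred on their median (0.87). AT4G31760 read 24.0, 26.9 and 25.3 at 12 h, 54.6, 75.6 and 69.2 at 24 h, and 11.7, 11.9 and 8.77 at 48 h, so its 3 times did not overlap. PRX52 was near 4.4 everywhere but at 24 h.

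Lipid transfer and related small secreted proteins, which bind lipids at surfaces, included the named probe set with the highest intensity. AT5G01870, a lipid transfer protein, averaged 4.66 ± 0.139 after 12 h in the cold, 18.5 ± 0.545 after 48 h, 31.3 ± 11.7 at 1 h of light and 178 ± 20.9 at 6 h, each mean above the one before. It read 322, 328 and 362 at 12 h, 2846, 2929 and 2815 at 24 h and 885, 1083 and 1263 at 48 h of light. Its rise at 6 h of light against 48 h of stratification was 2.49 ± 0.12 (adjusted p = 1.98e-13), and at 48 h of light it remained above 48 h of stratification by 4.97 ± 0.12 (adjusted p = 6.45e-20) and above 12 h by 1.62 ± 0.12 (adjusted p = 1.34e-10). AT1G62500, of the same wider protein family, read 25.4, 27.7 and 44.2 at 12 h, 138, 153 and 165 at 24 h, and 29.5, 18.0 and 22.5 at 48 h, where its 12 h and 48 h arrays overlapped.

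**Figure D3:**
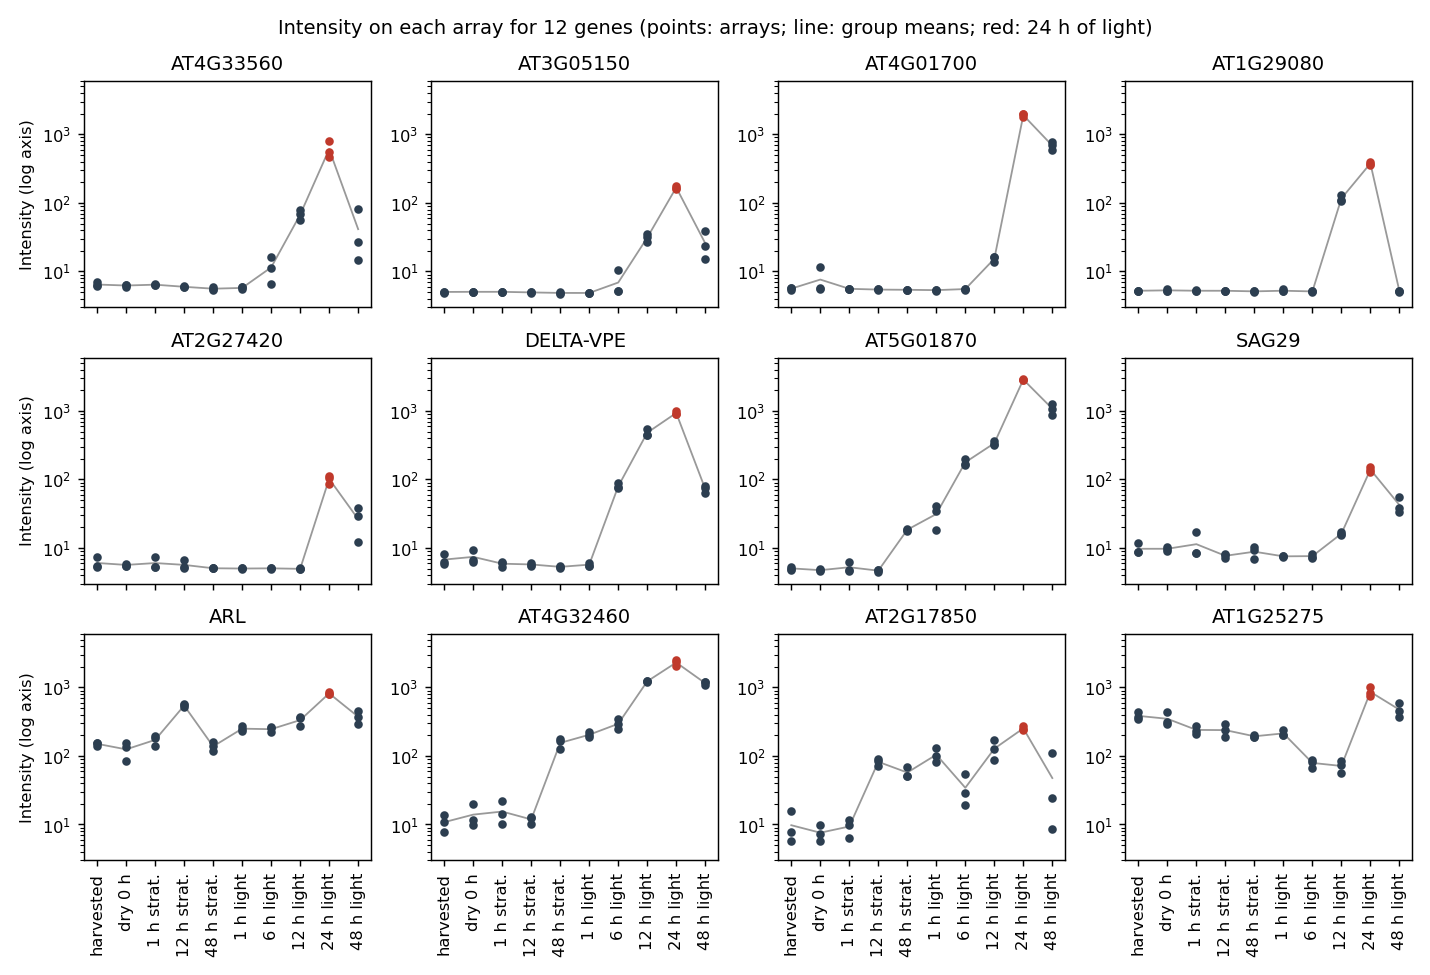
Intensity on each of the 30 arrays (points, log axis) for 12 named genes over the 10 groups in time order, with the line through group means and the 24 h arrays in red. AT1G29080 returns at 48 h to the floor of about 5, AT4G01700 is still at 595 or more, and ARL has a separate earlier high at 12 h of stratification.

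Of the genes acting on wall polysaccharides, all 3 rose at 12 h against 6 h of light, and all 3 were higher at 48 h of light than at 48 h of stratification. The shares in these comparisons were 23.1% and 41.3% of the 121, and 2.75% and 15.2% of all probe sets. AT3G10720, a pectin methylesterase, read 112, 95.4 and 108 at 12 h, 600.1, 586 and 629.7 at 24 h, and 309, 289 and 345 at 48 h of light. Its rises were 1.88 ± 0.09 at 12 h against 6 h (adjusted p = 2.66e-13) and 3.67 ± 0.09 at 48 h of light against 48 h of stratification (adjusted p = 4.81e-20). AT4G32460, a DUF642 protein known to promote pectin methylesterase activity in Arabidopsis seeds, rose in 2 stages. The first was in the cold, 155 ± 26.9 at 48 h against 11.8 ± 1.49 at 12 h of stratification (2.61 ± 0.14, adjusted p = 2.96e-13), and the second at 12 h against 6 h of light (2.01 ± 0.14, adjusted p = 1.49e-10). Its arrays then read 1215, 1232 and 1234 at 12 h, 2062, 2318 and 2543 at 24 h and 1183, 1191 and 1084 at 48 h, so that the arrays at 48 h lay just below those at 12 h. TBL39, from a family of polysaccharide acetyltransferases, read 85.2, 87.3 and 119 at 12 h, 301, 308 and 289 at 24 h, and 111, 127 and 122 at 48 h. It rose by 1.44 ± 0.10 at 12 h against 6 h (adjusted p = 2.84e-10), a call lost with a pseudocount of 64 (0.84).

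Of both named sugar transporters, 1 was back near its 12 h level at 48 h and 1 was not. AT3G05150, of the ERD6-like group of vacuolar monosaccharide carriers, read 26.8, 31.6 and 34.9 at 12 h, 176, 162 and 165 at 24 h, and 14.9, 23.7 and 38.7 at 48 h of light. Its rise of 1.05 ± 0.12 at 12 h against 6 h (adjusted p = 3.34e-07) fell under the limit on size with quantile normalization (0.85), with median centring (0.98) and without replicate 3 of 12 h or replicate 1 or 2 of 6 h of light (0.99 each). SAG29, the plasma membrane sugar exporter SWEET15, which works in the seed coat and endosperm of developing seeds, read 17.0, 15.4 and 16.1 at 12 h, 151, 138 and 128 at 24 h, and 33.5, 55.1 and 38.5 at 48 h. All 3 arrays at 48 h lay above those at 12 h (0.84 ± 0.10, adjusted p = 3.01e-07, under the limit on size). At 48 h of light it stood above 48 h of stratification by 1.22 ± 0.10 (adjusted p = 4.37e-10), a call lost with arrays centred on their median (0.997) and with a pseudocount of 64 (0.54).

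**Figure D4:**
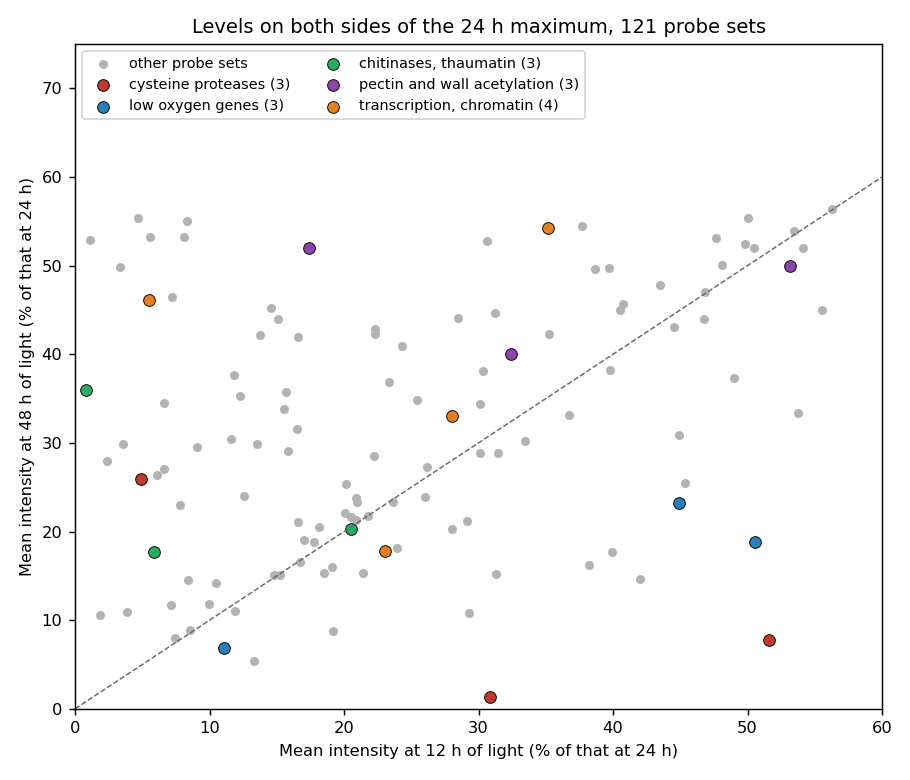
Mean intensity at 48 h of light against that at 12 h of light, each as a percent of the same probe set's 24 h mean, for the 121 probe sets, with 5 gene groups coloured; the dashed line marks equal levels on both sides. The 3 low oxygen genes lie below the line, while AT4G01700, at 0.804% before and 36.0% after, lies far above it.

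Genes of the low oxygen response varied widely among replicates at 48 h of light. AT4G33560, of the wound-responsive family and a widely used hypoxia marker, read 77.5, 56.5 and 67.8 at 12 h, 795, 553 and 471.5 at 24 h, and 14.5, 27.3 and 82.3 at 48 h of light, with all earlier arrays between 5.42 and 16.5. Replicate 3 at 48 h lay above all 3 arrays at 12 h, and the other replicates lay below them. It rose by 1.61 ± 0.25 at 12 h against 6 h (adjusted p = 2.44e-05) and was above 48 h of stratification by 1.23 ± 0.25 at 48 h of light (adjusted p = 0.000159), the second lost without replicate 3 of 48 h of light (0.75) and in a fit of only those 2 groups (adjusted p = 0.0701). AT2G17850, a rhodanese-like gene of the same response, averaged 82.1 ± 9.46 at 12 h against 9.35 ± 2.71 at 1 h of stratification (1.95 ± 0.37, adjusted p = 0.00041), and read 86.6, 126 and 170.5 at 12 h, 272, 251 and 236 at 24 h and 8.58, 24.1 and 110.1 at 48 h of light. Its change of -1.48 ± 0.37 at 48 h against 12 h of light (adjusted p = 0.00162) was -0.97 without replicate 1 of 48 h and had adjusted p = 0.142 in a fit of the 2 groups alone. AT3G03270, the universal stress protein HRU1, which is also induced by hypoxia, read 523, 628 and 645 at 12 h, 1606, 1284 and 1109 at 24 h, and 179.7, 247 and 504 at 48 h. Its rise at 12 h against 6 h was 1.19 ± 0.24 (adjusted p = 0.000521), and its change of -1.03 ± 0.24 at 48 h against 12 h (adjusted p = 0.000884) was between -0.998 and -0.73 without replicate 1 or 2 of 48 h or replicate 2 or 3 of 12 h. Fitted on those 2 groups alone it had adjusted p = 0.087.

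The spread at 48 h was shared across the response. Of 24 genes in the low oxygen list 9 are named on the array, and all 9 were lowest in replicate 1 of 48 h of light while 8 were highest in replicate 3. Their summed intensity, in which bright probe sets weigh most, was 239, 414 and 657.5 in replicates 1 to 3 at 48 h of light. At 24 h it was 2795, 2368 and 2253. The 2 list genes among the 121 were chosen for being lower at 48 h, so the gap between both times is a description only. Over the 121 probe sets replicate 1 was also most often the lowest at 48 h, with 57, 24 and 40 lowest in replicates 1, 2 and 3, while 28, 52 and 41 were highest in them. The median deviation of replicate 1 from its group mean was -0.03 on the log2 scale for the 121 and 0.0003 over all probe sets. A skew of replicate 1 was not confined to 48 h. At 12 h of light it was the lowest more often still (67, 24 and 30 in replicates 1, 2 and 3). At 24 h it was most often the highest (53, 29 and 39). What set the replicates apart was not tested.

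Most of the low oxygen list did not share the maximum at 24 h. Only 3 of its 9 named genes were highest then, of which AT4G33560 and AT2G17850 passed the margins and AT4G17670 (145, 157 and 57.0 on average at 12, 24 and 48 h of light) did not. AT4G10270, from the same wound-responsive family as AT4G33560, averaged 2459 at 12 h, 1077 at 24 h and 188 at 48 h, and AT1G19530 averaged 365, 69.1 and 15.3. At 48 h against 12 h of light 6 of the 9 fell and 0 rose, with a median log2 difference of -1.48 against -0.01 over all probe sets. In that step 9.39% of all probe sets fell and 9.17% rose. At 12 h against 6 h of light 3 rose and 0 fell, with a median of 0.91 against -0.01, where 2.75% of all rose and 1.59% fell.

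DELTA-VPE likewise had few companions in its list. Of 22 genes for vacuolar proteases and developmental cell death 9 are named, and DELTA-VPE was the only 1 highest at 24 h. BETA-VPE, the main seed-storage processing enzyme, declined through the same times, at 1653, 694 and 125 on average at 12, 24 and 48 h. SCPL48, a serine carboxypeptidase, and ALP2, an aleurain-like protease, were at their height by 12 h (829, 711 and 136 for SCPL48; 3488, 3129 and 1203 for ALP2). GAMMA-VPE, the vegetative form, moved the other way, at 75.7, 111 and 244. At 48 h against 12 h of light 4 of the 9 fell, including DELTA-VPE, and 1 rose, with a median of -0.75. Of all probe sets 9.39% fell and 9.17% rose in that step. PASPA3 and EXI1, markers of developmental cell death, stayed at 21.0 or less on every array at 24 h and 48 h.

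**Figure D5:**
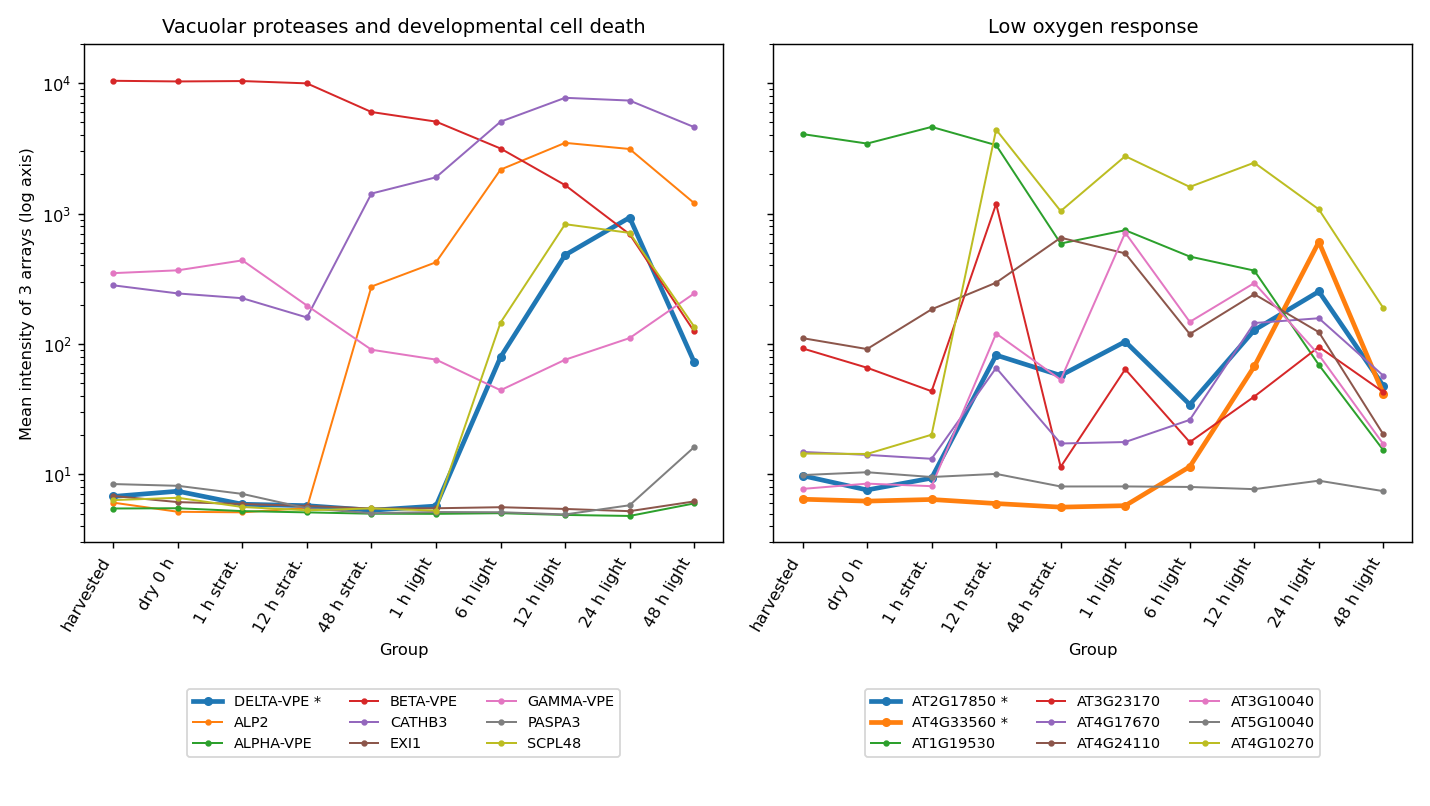
Mean intensity (log axis, 3 arrays per group) over the 10 groups for the 9 named genes of the vacuolar protease list (left) and the 9 of the low oxygen list (right); thick lines with an asterisk are genes among the 121 probe sets. DELTA-VPE reaches 932 at 24 h, when BETA-VPE, at 694, is already below its 12 h level of 1653, and AT4G33560 reaches 606 while AT4G10270, at 1077, is below its 12 h level of 2459.

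No named gene of the other 16 lists was among the 121, and list genes without a name on the array, or behind the 58 unnamed probe sets, could not be followed. Of 8 named genes for wall loosening and cellulose synthesis 3 were highest at 24 h without passing the margins, among them XTH16, a wall-modifying enzyme, at 519, 1472 and 962 at 12, 24 and 48 h. Of 4 named genes for DNA replication and histones 2 were highest at 24 h, among them HTB2, a histone H2B gene, at 497, 1026 and 644. Lists that mark other parts of the seedling were later: both named root hair genes, EXPA7 and EXPA18, averaged 19.8 and 15.1 at 24 h of light and 268 and 619.7 at 48 h, and all 5 named photosynthesis genes were called higher at 48 h than at 24 h. In that step 7.65% of all probe sets were called in either direction, and 3.04% of all were called lower. The xylem and cuticle lists had 1 named gene each, and those for phosphate and nitrogen 0, so these could not be read as groups. No list of endosperm or seed coat markers was used here, and the part those tissues play in the values was not tested.

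Regulators among the named genes were few, and the 4 given here were picked by kind after their values were seen, except AT2G43140, which the naming rule took. AT2G43140, a bHLH transcription factor, read 59.9, 57.1 and 55.6 at 12 h, 251, 235 and 263 at 24 h and 42.7, 54.0 and 36.4 at 48 h, and rose by 1.35 ± 0.09 at 12 h against 6 h (adjusted p = 3.65e-11). BZIP61, a bZIP transcription factor, was at the floor through 12 h of light (5.20 to 5.91 on the 21 earlier arrays, 5.37 to 5.44 at 12 h). Then it read 99.0, 89.2 and 106 at 24 h and 44.7, 51.1 and 40.0 at 48 h, which was 1.51 ± 0.04 above 12 h (adjusted p = 2.19e-18). ULT1, a trithorax-group developmental regulator, read 79.0, 103 and 107 at 12 h, 293, 268 and 262 at 24 h and 138, 133 and 175 at 48 h, and was 2.45 ± 0.13 above 48 h of stratification at 48 h of light (adjusted p = 8.69e-14). MYBC1, a MYB-like factor, read 48.6, 40.5 and 32.6 at 24 h and was called in none of the 7 comparisons. Alongside these, 4 genes encode C1-domain proteins, a cysteine- and histidine-rich family (AT3G13760, AT4G14980, AT2G02680 and AT2G04500), with 24 h means from 23.9 to 105. Of the 4, 1 (AT3G13760) rose at 12 h against 6 h of light (1.38 ± 0.06, adjusted p = 9.01e-14).

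Several genes had an earlier high during imbibition in the cold. ARL, an ARGOS-like gene that promotes cell expansion, averaged 543 ± 27.4 at 12 h of stratification, against 171 ± 27.4 at 1 h, and then 138 ± 19.2 at 48 h (1.59 ± 0.17, adjusted p = 1.21e-07, and -1.87 ± 0.17, adjusted p = 1.61e-09). In light it read 369.6, 277 and 354 at 12 h, 794, 809 and 849 at 24 h and 295, 459.6 and 366 at 48 h. AT2G47440, a tetratricopeptide repeat protein, averaged 134 ± 29.6 at 12 h of stratification, against 8.16 ± 3.67 at 1 h, and 15.9 ± 3.14 at 48 h, and reached 265 ± 29.98 at 24 h of light (2.63 ± 0.16, adjusted p = 2.33e-11, and -2.22 ± 0.16, adjusted p = 7.73e-11, for the cold steps). In all, 3 of the 5 probe sets that rose at 12 h of stratification fell again by 48 h. ALN, allantoinase of purine breakdown, rose in the same step by 1.26 ± 0.11 (adjusted p = 3.66e-09), was 48.2 ± 6.72 at 48 h of stratification, fell to 7.02 ± 0.396 at 6 h of light (-1.47 ± 0.11, adjusted p = 8.73e-11) and returned to 77.4, 62.1 and 68.3 at 24 h.

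Others began high in the dry seed. AT3G60910, a methyltransferase family gene, averaged 21.0 ± 5.47 at 48 h of stratification against 218 ± 36.2 in dry seed (-2.66 ± 0.15, adjusted p = 3e-13) and came back to 230.2 ± 8.69 at 24 h of light. Its highest dry seed array, 258, lay above the 3 arrays at 24 h. AT1G25275, a thionin-like gene, averaged 384 ± 51.3 in freshly harvested seed, 194 ± 9.50 at the end of stratification, 71.4 ± 14.1 at 12 h of light, 859.8 ± 132 at 24 h and 473 ± 118 at 48 h. It fell at 6 h of light against 48 h of stratification (-1.14 ± 0.18, adjusted p = 1.16e-05) and stood above 12 h by 2.47 ± 0.18 at 48 h of light (adjusted p = 3.86e-11). AT3G24100 fell by 1.16 on the log2 scale at 48 h of stratification against dry seed (SE 0.11, adjusted p = 5.94e-09) and rose by 1.46 ± 0.11 at 6 h of light (adjusted p = 2.62e-10).

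Genes whose level at 48 h of light was called above that at 12 h included AT1G62480, related to a vacuolar calcium-binding protein, with 36.6, 32.0 and 37.9 at 12 h, 771, 739 and 759 at 24 h and 350.4, 487 and 418 at 48 h of light. It had risen by 1.22 ± 0.06 at 12 h against 6 h (adjusted p = 8.53e-13). It was 3.07 ± 0.06 higher at 48 h than at 12 h of light (adjusted p = 2.98e-21) and 4.31 ± 0.06 higher than at 48 h of stratification (adjusted p = 3.3e-24). MSRB9, a methionine sulfoxide reductase that repairs oxidized proteins, read 56.6, 84.5 and 92.4 at 12 h, 538, 492 and 572 at 24 h and 184.5, 261 and 279 at 48 h, with rises of 1.502 ± 0.15 at 12 h against 6 h (adjusted p = 5.83e-08) and 1.46 ± 0.15 at 48 h against 12 h (adjusted p = 2.07e-08). AT1G54890, related to late embryogenesis abundant proteins, was at 5.03 to 5.24 at 12 h, 163, 159 and 144 at 24 h and 54.2, 78.4 and 99.1 at 48 h (2.11 ± 0.10 for 48 h against 12 h, adjusted p = 1.53e-14). AT1G62480 and AT1G62500 lie with 1 protein-coding gene between them in the reference annotation, as do MSRB9 and AT4G21865. These 2 pairs were the only close neighbours among the named genes. The first pair had unlike values after the maximum: at 48 h against 12 h of light AT1G62500 changed by -0.29 ± 0.12 (adjusted p = 0.0476, under the limit on size), while AT1G62480 rose as given above. The difference between these changes was not tested.

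At least 1 named gene has a second probe set. AT2G32560, an F-box gene, read 104, 74.3 and 88.8 at 12 h, 403, 381 and 360.4 at 24 h and 149.8, 136 and 137 at 48 h on the probe set that met the rule, and its other probe set had a smaller margin of 0.64. Among probe sets with no gene name were the brightest of the 121, 261826_at, with 2346, 2163 and 2122 at 12 h, 3859, 4283 and 4191 at 24 h and 1178, 1391 and 1546 at 48 h, and the one with the widest smaller margin, 266364_at. The second read 31.1, 25.7 and 25.1 at 12 h of light, 684, 708 and 720.2 at 24 h and 52.6, 78.3 and 99.3 at 48 h, after earlier highs of 301 ± 34.0 after 12 h in the cold and 424 ± 90.4 at 1 h of light. 265948_at had the largest rise at 12 h against 6 h of light among the 121 (3.67 ± 0.20, adjusted p = 3.01e-12). These unnamed probe sets were singled out after their values were seen.

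Near the threshold the choice was fine-grained. The last 3 inside had a smaller margin of 0.81 (AT2G04500), 0.80 and 0.80. The first outside, at 0.80 when rounded but under the limit, is shared by 5 histone H3 genes and averaged 258, 611 and 345 at 12, 24 and 48 h of light; the next had 0.79 each. Of the 121, 1 probe set did not keep its 3 arrays at 24 h above those at 48 h: AT3G16530 read 78.2, 68.3 and 49.4 at 24 h and 6.53, 10.2 and 50.8 at 48 h of light, with replicate 3 again the highest at 48 h.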

How the data were processed

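RNA of whole seed (400 ng per sample) was hybridized to 30 one-colour Affymetrix arrays, 3 in each of 10 groups taken from the labels. What the authors deposited is 1 linear intensity per probe set and array, already summarized and normalized. The submitters' processing notes name Partek, RMA and MAS5. The program behind these intensities is, in the sources used here, not given. After 64 control probe sets were set aside, 22746 remained. Median intensity per array ran from 11.8 to 19.4 and was higher in the later groups, replicate arrays correlated at 0.985 to 0.998, and no 2 columns were identical. The number of arrays limits the precision.

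Intensities plus 16 were put on a log2 scale, and limma 3.58.1 (R 4.3.3; lmFit and eBayes) estimated a mean for each group from the 30 arrays together, with 20 residual and 1.2052 prior degrees of freedom. The procedure was tested on simulated data. Adjusted p is by Benjamini-Hochberg over all 22746 probe sets of a comparison. Tables came from pandas 2.3.3 and numpy 2.4.6 under Python 3.11.15, figures from matplotlib 3.10.9. Gene names came from the platform annotation, with 13436 of the 13513 single-gene probe sets found in the reference table. The members, the 18 gene lists (362 genes) and the tests were chosen with earlier results of these data known. A naming rule took 39 of the 62, of which not all are described above. It took the 25 with the largest smaller margin, list genes, and the 4 largest rises and falls in each of the 7 comparisons. It also took the 10 highest at 24 h, those at the threshold, and close neighbours. The rule's genes not described are AT1G49470, AT2G27140, AT1G10990, AT1G69526, AT1G55760, AT4G09950, AT1G78530, AT2G24300 and AT1G66620. Of these, AT1G69526 rose by a log2 difference of 2.46 at 12 h against 6 h of light. Genes outside the rule are named where their kind of protein is described, and were picked after their values were seen. Alternatives were a pseudocount of 1 or 64, quantile normalization, median centring, probe sets with a mean of at least 30 only, a fit of the groups compared, a replicate block and leaving out each array. Promoter motif counts, also planned, were not run, because no promoter sequences were used here.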

Additional observations from a re-analysis of the deposited data

How the results depend on the processing

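The number of probe sets kept by the rule depended most on the pseudocount: 220 with 1, all 121 included, and 47 with 64. It was 57 when probe sets with a mean under 30 were left out, 111 with quantile normalization (104 shared) and 112 with median centring (109 shared), and 114 to 131 without 1 array of 12, 24 or 48 h of light. With a pseudocount of 64, calls among the 121 numbered 3 instead of 5 at 12 h against 1 h of stratification, 10 instead of 18 at 48 h of stratification against dry seed, 7 instead of 14 at 6 h of light against 48 h of stratification, 11 instead of 30 at 12 h against 6 h of light, and 33 instead of 50 at 48 h of light against 48 h of stratification. With 1 they numbered 24 instead of 15 at 48 h against 12 h of stratification, 33 at 6 h of light, 46 at 12 h and 42 instead of 24 at 48 h against 12 h of light. A larger pseudocount shrinks differences of dim probe sets by construction. Over all probe sets, 626 rises and 361 falls at 12 h against 6 h of light became 278 and 193 with 64, and 1118 and 574 with 1. At 48 h of light against 48 h of stratification, 3456 and 3762 became 2269 and 2426 with 64. Without each array in turn the counts were 5 to 5, 15 to 16, 16 to 18, 14 to 16, 27 to 31, 23 to 25 and 50 to 53, in the time order of the comparisons. Of 80 calls on single named genes, 40 were lost in at least 1 alternative. Over 1026 refits 959 kept the call and 67 lost it, 39 of them with a pseudocount of 64 and 16 without 1 array, and 0 reversed. Median centring shifted the median of all probe sets to -0.24 at 48 h of light against 48 h of stratification (-0.02 otherwise). With the replicate block the counts were 5, 15, 18, 14, 30, 24 and 50, as without it. After group means were subtracted, same-numbered arrays of the groups compared correlated at -0.156 to 0.302. With 3 arrays per group this cannot tell whether the numbers paired the samples.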
